A study of Mus musculus with 2 samples.

Results

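The 10 enzymes described here carry glucose through glycolysis to pyruvate and lactate. They were the rows of the deposited table named Hk2, Gpi1, Aldoa, Tpi1, Gapdh, Pgk1, Pgam1, Eno1, Pkm and Ldha, 10 of 26601 named genes. The table came from tumours of CT26 cells, a colon carcinoma line of the BALB/c strain, implanted under the skin of wild-type BALB/c mice. Tumour-bearing mice received intravenous nanoparticles without drug (Empty NP) or with 10 mg/kg FuOXP (FuOXP NP), in which 5-fluorouracil and oxaliplatin are conjugated. Each group had 3 mice, dosed 3 times at 5-day intervals from a tumour size of about 200 mm3, and tumours were collected 24 h after the final dose. There was 1 library per group, and the sources used here do not say whether it pooled the 3 tumours. The comparison of the groups therefore has no replicate check, carries no p-value, and describes these libraries only.

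Glycolysis splits glucose into pyruvate in the cytosol. In its preparatory phase sugar phosphates are made and cleaved, and in its payoff phase ATP, NADH and pyruvate are formed. Lactate dehydrogenase then reduces pyruvate and regenerates the NAD that the pathway consumes. Tumour cells often run the pathway at a high rate even with oxygen present, and several of its genes are known targets of the hypoxia-inducible factor HIF-1.

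As deposited, all 10 enzymes were lower in FuOXP NP than in Empty NP, with a median close to that of all genes. The deposited direction depends on the scaling: with the 20 most abundant rows removed and both libraries rescaled, Ldha (0.29), Gapdh (0.28) and Eno1 (0.01) were higher in FuOXP NP on the log2 scale and 7 enzymes lower, and the median gene was at -0.35. Levels are in TPM, a measure of transcript abundance scaled to exon length and to a common library total. Differences are log2((FuOXP NP + 1)/(Empty NP + 1)), and a value relative to the median gene is that difference minus the median of -1.44 over the 9488 named genes whose mean reached 1 TPM. All 10 enzymes passed that minimum. Where a pair of values carries no group name, Empty NP comes first. The median enzyme had a difference of -1.54, which is -0.10 after subtracting the median gene, with 4 enzymes above it and 6 below it. Among all 9488 genes 50% lay above it. All 10 were at least 2-fold lower as deposited, where 69.8% of all genes were. At a mean of 5 TPM or more, a level that 8 of the enzymes reached, 79.7% of genes were. None of the 10 lay 2-fold or more from the median gene in either direction, against 24.8% of all genes. Pkm, Gpi1 and Pgk1 were the lowest relative to the median gene, and Hk2, Gapdh and Ldha the highest. Hk2 does not keep its place: it was at 0.07 with a pseudocount of 0.1 TPM and at -0.22 by recovered reads. The plot of all named genes shows the enzymes inside the central part of the distribution.

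**Figure D1:**
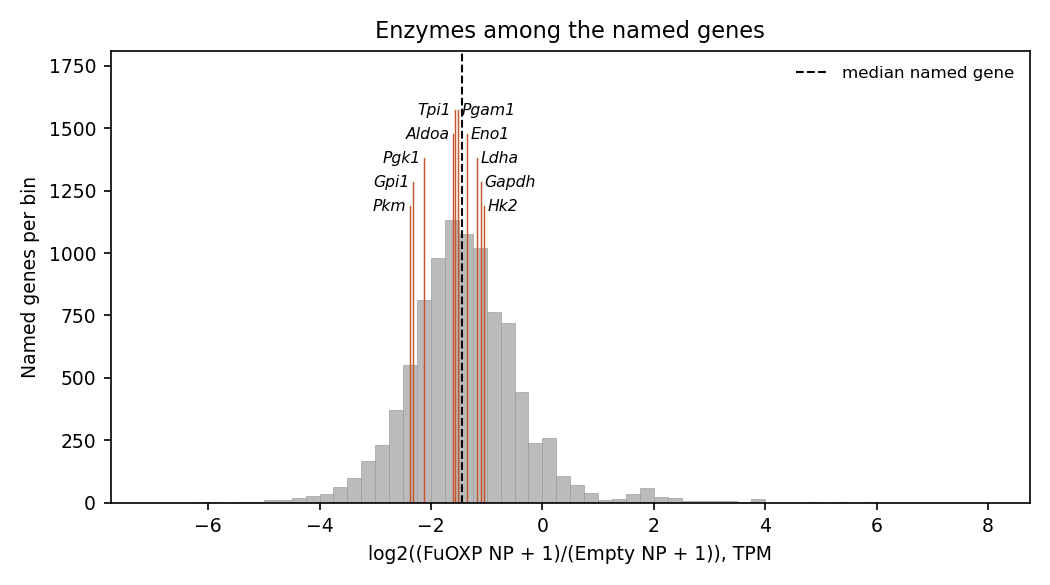
Number of named genes (y axis) by log2 difference between FuOXP NP and Empty NP (x axis, bins of 0.25) for the 9488 genes that reached a mean of 1 TPM; orange lines mark the 10 enzymes and the dashed line the median gene. The enzymes lie between -2.38 (Pkm) and -1.05 (Hk2), on both sides of the median at -1.44.

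Because the smallest values of the table are multiples of what 1 read is worth, whole reads could be recovered for every enzyme. The enzymes held 423 such reads in Empty NP against 208 in FuOXP NP, where each may stand for a single read or for a pair. The fold values with an interval below are ratios of deposited TPM with no pseudocount, with exact 95% Clopper-Pearson intervals from those reads, which cover counting error only. They are set against 3.20-fold lower, the median of 1022 genes with at least 50 reads. The named genes whose reads came out whole held 235609 reads (Empty NP) and 150416 (FuOXP NP), far fewer than the labels give, with a median of 5 and 3 reads among genes above 0. The 20 most abundant rows held 47.2% of the TPM total in Empty NP against 81.3% in FuOXP NP. Without those rows the median enzyme was at -0.26, and at 0.09 relative to the median gene under the same scaling.

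Several enzymes have near-identical copies elsewhere in the genome, which bears on the reads that could be assigned to them. Of all 75-base stretches of coding sequence, the read length of the study, all of those of Pgk1 and Pgam1, 94.0% of those of Gapdh and 75.2% of those of Eno1 also occurred in a transcript of another gene in GENCODE vM21. The share was 30.2% for Pkm and 24.6% for Gpi1. It was 9.02% for Ldha, 4.50% for Tpi1, 1.86% for Aldoa and 0 for Hk2. For Pkm and Gpi1 the measure includes genes at the same place in the genome, not only copies elsewhere. Of the stretches shared by their whole transcripts, Gm49759 held 548 of 915 for Pkm and Gm26762 held 450 of 726 for Gpi1. Exons of both genes overlap those of the enzyme. Over its whole transcripts Gapdh shared stretches with 121 other genes, of which 4 had a row here under their symbol and all 4 were listed at 0 in both libraries. Coding bases 493 to 567 of Gapdh and 451 to 525 of Eno1 are shown because they cannot tell the gene from its copies. The Gapdh stretch occurs in 49 other genes and the Eno1 stretch in 3, Eno1b among them. The sources used here do not say how reads with several matches were counted, so levels of these enzymes are uncertain.
Gapdh (chromosome 6, plus sense of the transcript): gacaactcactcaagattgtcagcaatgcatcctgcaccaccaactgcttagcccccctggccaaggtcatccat
Eno1 (chromosome 4, plus sense of the transcript): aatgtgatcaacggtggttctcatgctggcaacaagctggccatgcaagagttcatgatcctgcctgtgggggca

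**Figure D2:**
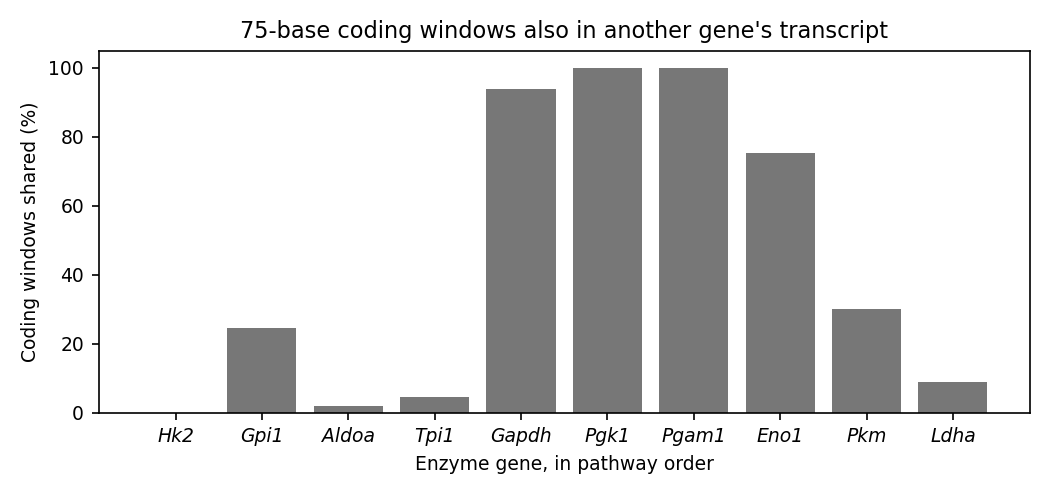
Share of 75-base coding windows (y axis, percent) that also occur in a transcript of another annotated gene, for each enzyme in pathway order (x axis). Pgk1 and Pgam1 share all of their windows and Gapdh 94.0%, while Hk2 is at 0 and Aldoa at 1.86%.

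Enzymes with the most and with the least shared sequence covered overlapping ranges of difference. The 4 enzymes with at least 75% shared windows ran from -0.69 to 0.33 relative to the median gene, with a median of 0.01. The 4 with under 10% ran from -0.16 to 0.39, with a median of 0.07. The 2 between, Gpi1 (24.6% shared) and Pkm (30.2%), were at -0.88 and -0.94, the lowest of the 10. Whether shared sequence bears on the differences was not tested.

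In the preparatory phase, hexokinase 2 (Hk2, chromosome 6, 82725025 to 82774454, minus strand, GRCm38) traps glucose in the cell as glucose 6-phosphate and is the hexokinase often raised in tumours. Hk2 stood at 2.39 TPM in Empty NP against 0.639 TPM in FuOXP NP, on 4 and 2 reads. It was the lowest of the 10 in both libraries, and its counting interval, 3.73-fold lower (0.535 to 41.3), is too wide to show a direction. Glucose-6-phosphate isomerase (Gpi1, chromosome 7, 34201330 to 34230336, minus strand) makes fructose 6-phosphate. Gpi1 was at 14.4 and 2.07 TPM, on 26 and 7 reads. Its ratio, 6.93-fold lower (2.93 to 18.9), was the largest of the 10, and the interval holds 3.20. Its exons overlap those of Gm26762.

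Aldolase A (Aldoa, chromosome 7, 126795234 to 126800751, minus strand) cleaves fructose 1,6-bisphosphate and is also the main aldolase of muscle. Aldoa was at 31.2 TPM in Empty NP against 9.64 TPM in FuOXP NP, on 33 and 19 reads, 3.24-fold lower (1.79 to 6.04). Triosephosphate isomerase (Tpi1, chromosome 6, 124810586 to 124814296, minus strand) interconverts the products of that cleavage. Tpi1 was at 55.6 and 18.0 TPM on 43 and 26 reads, 3.09-fold lower (1.85 to 5.23). Both enzymes lay close to the typical gene, at -0.16 and -0.13 relative to the median. Exons of Aldoa overlap Fam57b, and those of Tpi1 overlap Spsb2.

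The payoff phase opens with glyceraldehyde-3-phosphate dehydrogenase (Gapdh, chromosome 6, 125161715 to 125166467, minus strand), which makes NADH and is widely used as a reference transcript. Gapdh was at 18.1 TPM in Empty NP against 7.85 TPM in FuOXP NP, on 21 and 17 reads. This was 2.31-fold lower (1.16 to 4.65), and 0.33 above the median gene on the log2 scale. Its rank by level among the 26601 named genes was 2118 in Empty NP against 1522 in FuOXP NP. Its exons overlap Iffo1. Phosphoglycerate kinase 1 (Pgk1, chromosome X, 106187100 to 106203699, plus strand) makes the first ATP of this phase. Pgk1 was at 77.8 and 17.0 TPM on 49 and 20 reads, 4.57-fold lower (2.67 to 8.12), and 0.69 below the median gene.

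Phosphoglycerate mutase 1 (Pgam1, chromosome 19, 41911923 to 41918660, plus strand) moves the phosphate group of 3-phosphoglycerate. Pgam1 was at 7.78 and 2.08 TPM on 4 and 2 reads, the same read numbers as Hk2, so no direction can be read from it. Enolase 1 (Eno1, chromosome 4, 150236721 to 150248879, plus strand) forms phosphoenolpyruvate. Eno1 was at 17.9 and 6.38 TPM on 27 and 18 reads, 2.80-fold lower (1.49 to 5.40). Its copy Eno1b, which holds 73.3% of the Eno1 coding windows, was at 10.1 and 8.69 TPM. The sum of both rows was 28.0 and 15.1 TPM, which moved enolase from 0.09 to 0.59 above the median gene.

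Pyruvate kinase (Pkm, chromosome 9, 59656368 to 59679375, plus strand) yields pyruvate and ATP, in the M1 or M2 form by choice of exon, and 1 row holds both forms. Pkm was at 115 TPM in Empty NP against 21.3 TPM in FuOXP NP, on 168 and 58 reads, more reads than any other enzyme. It was 5.41-fold lower (3.99 to 7.42), and it alone among the 10 had an interval wholly beyond the 3.20-fold of the typical gene. Of the 8 enzymes with at least 20 reads this was 1, beside 17.3% of the 2375 genes with that many reads. No enzyme had an interval wholly on the other side, where 13.0% of genes lay. Exons of Pkm overlap Gm49759. Lactate dehydrogenase A (Ldha, chromosome 7, 46841475 to 46855627, plus strand) turns pyruvate into lactate. Ldha was at 51.6 and 22.5 TPM on 48 and 39 reads, 2.30-fold lower (1.47 to 3.60), the smallest ratio of the 10.

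**Figure D3:**
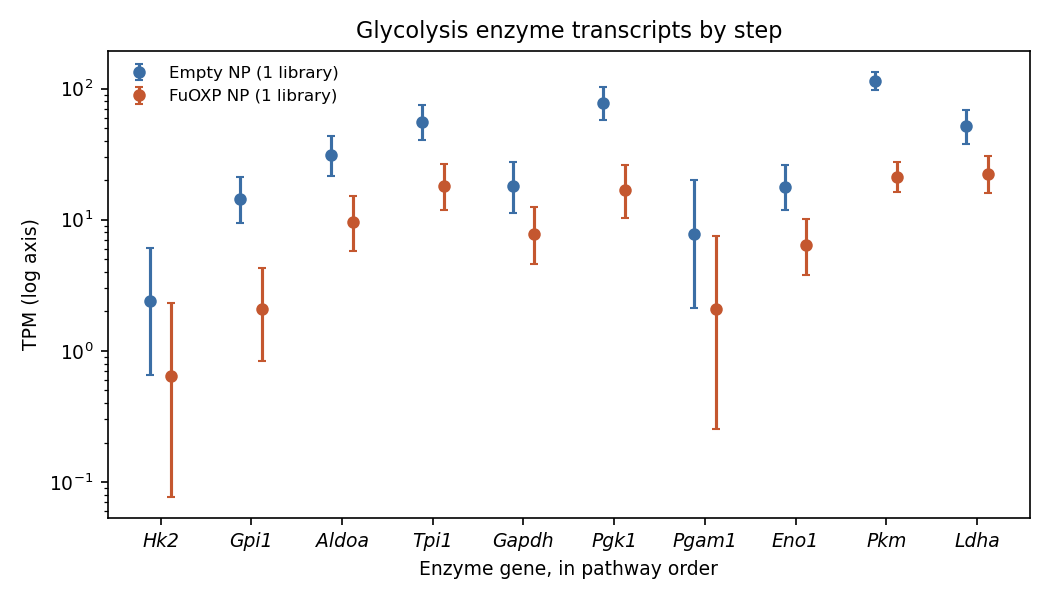
TPM on a log axis (y axis) of each enzyme in pathway order (x axis) in the single Empty NP library (blue) and the single FuOXP NP library (orange), with exact 95% Poisson intervals of the recovered reads. Every enzyme is lower in FuOXP NP as deposited (Ldha, Gapdh and Eno1 are higher after rescaling without the 20 most abundant rows), and the wide intervals of Hk2 and Pgam1 rest on 4 and 2 reads.

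Ordered by level, the enzymes of the Empty NP library ran Pkm, Pgk1, Tpi1, Ldha, Aldoa, Gapdh, Eno1, Gpi1, Pgam1, Hk2. In FuOXP NP Ldha came first, followed by Pkm, Tpi1, Pgk1, Aldoa, Gapdh, Eno1, Pgam1, Gpi1 and Hk2. Of the 9 pairs of neighbours in Empty NP, 2 had an exact interval of their TPM ratio that left out 1, not adjusted for their number. Pkm was 1.48 times Pgk1 (1.07 to 2.08) and Ldha 1.65 times Aldoa (1.04 to 2.66). In FuOXP NP the intervals of all 9 pairs held 1. Levels between enzymes also depend on the exon length used, which for Gapdh was 4133 bases, well beyond its coding part of 1077 bases. The 10 enzymes summed to 392 TPM in Empty NP against 107 TPM in FuOXP NP, or 0.0391% and 0.0107% of the library. Of that sum Pkm made up 29.4% in Empty NP and 19.8% in FuOXP NP, and Ldha 13.2% and 20.9%.

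Ratios between enzymes of the same library do not depend on how the libraries were scaled. The ratio of Pkm to Ldha, the last steps of the route to lactate, was 2.23 in Empty NP and 0.947 in FuOXP NP. That ratio was 2.35 times as large in Empty NP, with an exact conditional 95% interval of 1.35 to 4.07. Among the 9 pairs next to each other in the pathway order of these enzymes it was the 1 whose interval left out 1. Of those pairs, Gpi1 and Aldoa are separated by the phosphofructokinase step. Over all 45 pairs there were 3 such intervals, not adjusted for their number. No share over pairs of other genes is given here to set beside these counts. The others were Gpi1 to Ldha, 3.02 times as large in Empty NP (1.11 to 9.06), and Gapdh to Pkm, 0.426 times (0.199 to 0.928). The intervals of the remaining 42 pairs held 1.

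**Figure D4:**
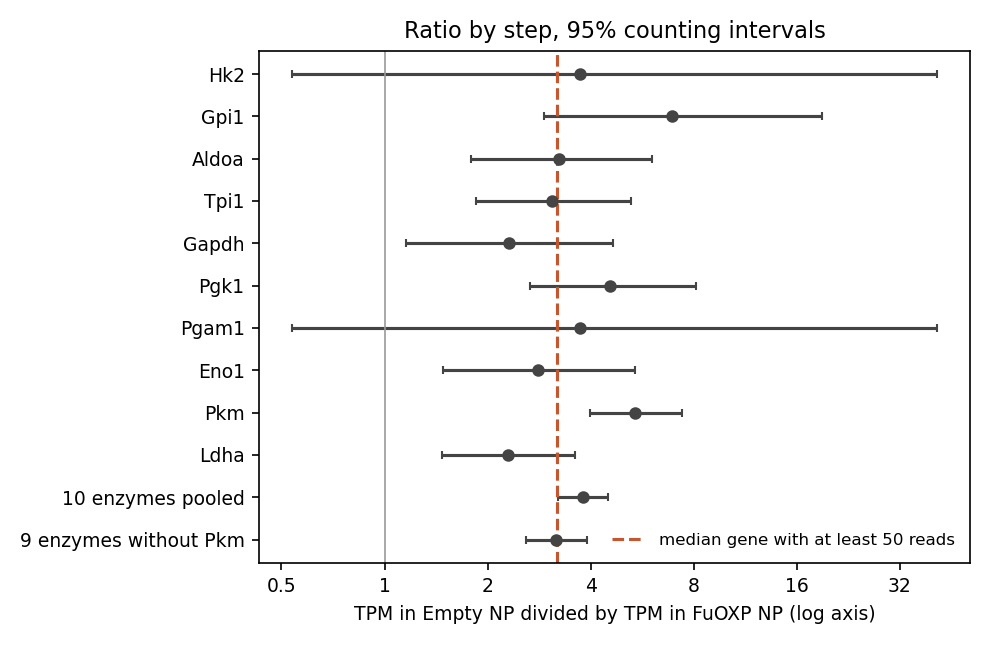
TPM in Empty NP divided by TPM in FuOXP NP (x axis, log scale) for each enzyme and for the pooled reads, with exact 95% Clopper-Pearson intervals; the grey line marks 1 and the dashed line 3.20, the median of genes with at least 50 reads. Pkm, at 5.41, is the single enzyme whose interval lies wholly beyond 3.20, and the pooled ratio shifts from 3.80 to 3.17 without it.

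Pooled over the 10 enzymes, the reads gave 3.80-fold lower (3.21 to 4.50). Pkm held 168 of the 423 reads in Empty NP. Without it the other enzymes had 255 and 150 reads, 3.17-fold lower (2.58 to 3.91), next to the 3.20-fold of the typical gene.

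The promoters of the 4 enzymes in those 3 pairs are shown with the core letters of the HIF-1 binding element, ACGTG and GCGTG. Each covers 250 bases before to 50 bases after the first RefSeq start listed for the gene (GRCm38.p6), read along the gene, with every match on either strand in capitals. Overlapping matches were counted separately. The Gpi1 window is chr7:34230287-34230586 on the minus strand, Gapdh is chr6:125165724-125166023 on the minus strand, Pkm is chr9:59656326-59656625 on the plus strand, and Ldha is chr7:46845554-46845853 on the plus strand.
Gpi1: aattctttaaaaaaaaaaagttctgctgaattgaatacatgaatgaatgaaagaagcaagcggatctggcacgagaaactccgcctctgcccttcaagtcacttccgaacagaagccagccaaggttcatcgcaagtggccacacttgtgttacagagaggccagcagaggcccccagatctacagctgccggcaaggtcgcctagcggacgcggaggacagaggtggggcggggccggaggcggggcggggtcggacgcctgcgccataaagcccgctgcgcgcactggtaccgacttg
Gapdh: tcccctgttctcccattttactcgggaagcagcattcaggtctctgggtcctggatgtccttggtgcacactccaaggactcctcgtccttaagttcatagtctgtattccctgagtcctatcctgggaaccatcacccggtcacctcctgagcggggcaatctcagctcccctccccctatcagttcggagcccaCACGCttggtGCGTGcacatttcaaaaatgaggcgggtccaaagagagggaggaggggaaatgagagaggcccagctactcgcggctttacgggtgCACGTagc
Pkm: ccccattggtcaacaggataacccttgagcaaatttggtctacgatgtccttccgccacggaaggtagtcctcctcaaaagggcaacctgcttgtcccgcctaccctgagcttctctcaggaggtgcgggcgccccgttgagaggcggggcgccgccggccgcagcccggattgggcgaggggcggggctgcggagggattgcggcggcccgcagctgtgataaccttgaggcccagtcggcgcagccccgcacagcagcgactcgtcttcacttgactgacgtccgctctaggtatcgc
Ldha: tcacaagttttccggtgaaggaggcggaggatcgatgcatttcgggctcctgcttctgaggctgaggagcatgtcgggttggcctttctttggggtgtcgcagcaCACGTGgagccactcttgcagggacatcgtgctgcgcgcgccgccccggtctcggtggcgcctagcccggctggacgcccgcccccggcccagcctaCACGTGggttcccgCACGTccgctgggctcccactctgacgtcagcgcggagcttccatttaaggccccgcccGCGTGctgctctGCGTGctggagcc

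Ldha held 7 matches, Gapdh 3, and Gpi1 and Pkm none in these windows. In its other listed window Pkm held 2. Of the 10 enzymes 6 had a match in their first window, beside 43.8% of 27025 first windows of all genes, and 3.94% of those held 4 or more. In any of their windows 8 had a match, for which no share over all genes was computed. The Ldha window was 67.3% G and C against a median of 52.7% over all genes, and the Pkm window, with no match, was 65.0%. A match is a description of the letters, and binding was not measured.

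The step between Gpi1 and Aldoa, 6-phosphofructokinase, is encoded by Pfkl, Pfkm and Pfkp. Pfkp, the platelet form, was at 69.4 TPM in Empty NP against 47.7 TPM in FuOXP NP, 0.91 above the median gene, and its exons overlap Pitrm1. Pfkl, the liver form, was at 8.10 and 1.30 TPM, 0.54 below it. Pfkm, the muscle form, was at 1.20 TPM and listed at 0. The 2 forms that passed the minimum level thus lay on opposite sides of the median gene.

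A list of 17 genes held other forms of the 10 enzymes and 2 mitochondrial enzymes of related name, Ldhd and Pgam5, that are not forms of Ldha or Pgam1. Of the 17 genes, 7 were listed at 0 in both libraries, among them the liver and red cell pyruvate kinase Pklr and the testis form Ldhc. Of the 8 that passed the minimum level, 7 were lower than the median gene and 1 higher, beside 50% above it among all genes, and their median was -0.50 relative to it. Without Ldhd and Pgam5, 5 were lower and 1 higher, with a median of -0.39. None was 2-fold below it, where 12.2% of genes were, and 1 was 2-fold above it, where 12.6% were. The exception was Eno3, the muscle enolase, at 4.10 and 7.68 TPM on 2 and 7 reads. Pgam2, the muscle phosphoglycerate mutase, was at 55.1 and 13.6 TPM on 13 and 6 reads, above Pgam1 in both libraries. The Pgam1 level is uncertain, as it rests on 4 and 2 reads and all of its coding windows are shared with other genes. The brain enolase Eno2 had 6 reads in Empty NP and a single read in FuOXP NP, or 4.54 and 0.405 TPM. Hk1, the widely expressed hexokinase, was at 3.76 and 0.447 TPM on 9 and 2 reads. Ldhd, the D-lactate dehydrogenase of mitochondria, was at 40.8 and 6.80 TPM on 61 and 19 reads, and its exons overlap Znrf1.

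Skeletal muscle RNA differed between the libraries. Of 14 muscle markers, 12 were listed at 0 in FuOXP NP, and 1 of these, Pvalb, was also at 0 in Empty NP. No share of zeros over all genes at such levels is given here. Mylpf, Casq1, Tnnc2 and Tnni2 had only 2, 2, 3 and 4 reads with empty particles. The summed level of the 14 markers was 128 TPM in Empty NP against 0.825 TPM in FuOXP NP. Pooled over 13 of them, 104 reads with empty particles stood against 2 with drug. This was 97.1-fold lower (26.2 to 812), an interval wholly beyond the 3.20 of the typical gene. Acta1, Ckm and Tnnt3, defining genes of muscle fibres, were at 16.2, 7.34 and 22.5 TPM with empty particles, and in FuOXP NP they were listed at 0. Muscle fibres also express glycolysis enzymes, and the part of muscle RNA in the values of any of the 10 enzymes was not tested. In bulk tumours, fewer cells of a type and less RNA per cell cannot be told apart. Markers of carcinoma epithelium were at or near 0: of 10 listed for the CT26 line, Krt8, Krt19, Krt7, Epcam, Cdh1 and Cdx2 were at 0 in both libraries, while Vim was at 241 and 68.8 TPM. As deposited, the macrophage list summed to 436 and 269 TPM, the leukocyte list to 17.1 and 4.15 TPM and the fibroblast list to 122 and 60.5 TPM. The endothelial list summed to 7.21 and 3.01 TPM and the adipocyte list to 73.0 and 6.58 TPM. Over genes that passed the minimum level, their medians relative to the median gene were 0.39, 0.08, 0.28, 0.11 and -1.98, in that order. These medians rest on 8, 4, 6, 2 and 3 genes. Exons of Csf1r, at 114 and 46.9 TPM in the macrophage list, overlap Hmgxb3. In the adipocyte list Plin4 (34.5 and 2.31 TPM) and Lipe (36.9 and 1.30 TPM) overlap exons of other genes, Fabp4 was at 1.59 and 2.97 TPM, and Adipoq, Plin1 and Cidec were listed at 0 in both libraries. The neutrophil list was at 0 and 20.1 TPM, on 0 and 6 reads of S100a8 and S100a9, and Ly6g, Csf3r and Mpo were listed at 0 in both. The interval of its ratio of Empty NP to FuOXP NP (0 to 1.59) holds 1. The erythroid list was at 38.5 and 75.0 TPM. Alas2, whose exons overlap Apex2, made up all of the erythroid sum in Empty NP and was at 7.94 TPM in FuOXP NP. The 4 globin genes were listed at 0 in Empty NP, and Hbb-bs was at 57.1 TPM in FuOXP NP.

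Glucose enters and lactate leaves the cell through transporters, of which 6 of 10 passed the minimum level, 3 above and 3 below the median gene. Slc16a1, the lactate carrier MCT1, was at 18.5 and 11.6 TPM on 23 and 27 reads, 1.59-fold lower (0.871 to 2.88). Slc16a3, the lactate exporter MCT4 of glycolytic cells, was at 17.4 and 3.23 TPM on 26 and 9 reads, 5.39-fold lower (2.45 to 13.1). Bsg, their chaperone at the cell surface, was at 33.4 and 18.9 TPM on 17 and 18 reads, 1.76-fold lower (0.854 to 3.63). Slc2a1, the glucose transporter GLUT1, was at 1.02 and 2.18 TPM on 1 read and 4 reads, with Slc2a3 at 0 and 0.527 TPM. At those read numbers no direction was detectable. Slc2a6 and Slc2a8, transporters of the same family, stood at 11.1 and 13.3 TPM in Empty NP on 10 and 12 reads, against 0.594 and 1.19 TPM in FuOXP NP on 1 read and 2 reads. Both lay over 2-fold below the median gene, where 12.2% of all genes were. Slc2a1 lay over 2-fold above it, where 12.6% were. The counting intervals of the ratio for Slc2a6 (2.66 to 810) and Slc2a8 (2.49 to 103) hold the 3.20 of the typical gene.

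Of the regulators of glycolysis, 7 of the 9 that reached the minimum level were higher than the median gene and 2 lower. Their median was 0.30 relative to it, and 50% of all genes lay above it. Hif1a, the oxygen-regulated subunit of HIF-1, was at 9.06 and 6.15 TPM on 15 and 19 reads. Txnip, which restrains glucose uptake, was at 14.8 and 12.8 TPM on 13 and 21 reads. Myc, a transcription factor that acts on many glycolysis genes, was at 10.3 and 4.14 TPM. Exons of Hif1a, Txnip, Slc2a1, Hk1, Bnip3, Mxi1, G6pdx, Tkt, Ugp2, Pgm1, Gpd1, Shmt2 and Pck2 overlap other annotated genes.

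The hypoxia targets other than the enzymes showed no shared direction, with 6 of 12 above the median gene and 6 below it. Bnip3, a mitophagy receptor, was at 7.86 and 10.1 TPM on 5 and 12 reads. Vegfa, the vascular growth factor, was at 12.4 and 0.889 TPM, 1.39 below the median gene. Mxi1, a MYC antagonist, was at 14.6 and 2.38 TPM, 0.77 below it, and Bnip3l, a relative of Bnip3, was at 7.38 and 3.46 TPM, 0.53 above it.

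Of 18 reference genes, 13 were higher than the median gene and 5 lower, with a median of 0.58 relative to it. Among all genes 50% lay above it. The reference genes included Tuba1b, a tubulin, at 5.70 and 7.12 TPM on 3 and 7 reads. They also included Hprt, a purine salvage enzyme, at 22.1 and 25.2 TPM on 8 and 17 reads. Rpl13a, a ribosomal protein, was at 6.74 and 7.22 TPM on 4 and 8 reads. Exons of Tuba1b and Rpl13a overlap other annotated genes.

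Counts for the routes that leave or follow glycolysis stand beside 50% of all genes above the median gene. No difference between these routes was tested. The pyruvate and citric acid cycle list had 12 of 24 genes above it and 12 below it, with a median of 0.02 relative to it. At a minimum mean of 5 TPM its members farthest from the median gene were Sdhd, a succinate dehydrogenase subunit, at 16.6 TPM with empty particles but listed at 0 with drug, and Idh2, a mitochondrial isocitrate dehydrogenase, at 15.1 and 1.47 TPM on 11 and 2 reads. Below that level Sdhb, another succinate dehydrogenase subunit, was at 1.59 and 4.26 TPM on 1 read and 5 reads, and Idh3g at 3.96 and 4.94 TPM on 3 and 7 reads, both named after their values were seen. Dld, a component of the pyruvate dehydrogenase complex, and Idh3a, an isocitrate dehydrogenase subunit, stood at 15.9 and 11.9 TPM in Empty NP against 10.2 and 7.15 TPM in FuOXP NP. The pentose phosphate pathway had 3 genes above and 4 below, and its entry enzyme G6pdx was at 9.25 and 2.48 TPM on 8 and 4 reads. Its epimerase Rpe, at 89.2 and 60.7 TPM, overlaps Kansl1l, and its transketolase Tkt was at 9.81 and 2.34 TPM. Glycogen genes had 6 above and 2 below, with a median of 0.35. The brain glycogen phosphorylase Pygb was at 14.1 and 3.57 TPM, Ugp2, which makes UDP-glucose, at 19.7 and 7.46 TPM, and Pgm1, a phosphoglucomutase, at 8.25 and 3.68 TPM. Of 6 gluconeogenesis genes 4 were listed at 0 in both libraries, and Pck2 and G6pc3 passed the minimum level, both above the median gene. G6pc3 rested on 1 read in each library. The serine, glycerol and hexosamine branches had 4 above and 4 below. Phgdh, which opens serine synthesis from 3-phosphoglycerate, was at 30.1 and 5.37 TPM on 21 and 7 reads, and Psat1, the next enzyme of that branch, at 8.37 and 4.48 TPM on 10 and 10 reads. Gpd1, a glycerol-3-phosphate dehydrogenase, was at 19.2 and 3.22 TPM on 16 and 5 reads, and Shmt2, which turns serine into glycine in mitochondria, at 9.27 and 1.66 TPM.

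**Figure D5:**
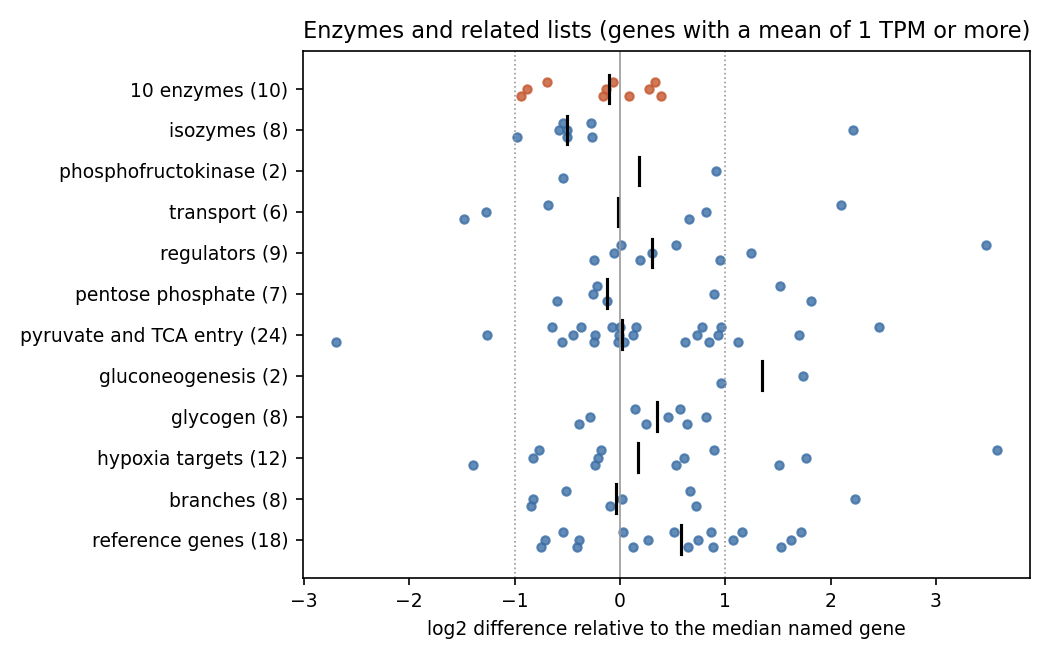
Log2 difference relative to the median named gene (x axis) for the 10 enzymes (orange) and the genes of 11 related lists that reached a mean of 1 TPM (blue, number of genes in brackets); black bars are medians and dotted lines mark 2-fold. The enzymes stay within 2-fold of the median gene, while genes of 9 of the 11 lists cross a dotted line in at least 1 direction.

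The 5 named genes outside all lists closest to the median enzyme, at 23.8 TPM in Empty NP against 8.70 TPM in FuOXP NP, were Hdgfl2, Fbxo46, Zc3h15, Hpf1 and Smc2. Likeness was the distance in log2(TPM + 1) over the 2 libraries, and it ran from 0.03 to 0.06 for these genes.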

How the data were processed

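RNA from 1 Empty NP and 1 FuOXP NP tumour library was sequenced as paired 75-base reads, per the labels. The authors deposited TPM values, 1 column per group, each scaled to its own library (sums 1001107 and 1000649). STAR 2.6.1a, Cufflinks 2.2.1, Cuffdiff and GRCm38 are listed in the submitters' processing notes, without their roles. Of 53927 rows, 22240 had no symbol and 26 a symbol turned into a date. Those and 54 adjacent copies were left out, and the highest row of a repeated symbol was kept.

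Differences used a pseudocount of 1 TPM, which understates the change of low genes, and a minimum mean of 1 TPM. No test was made with 1 library per group. Genes were called at 2-fold. Reads were recovered from TPM and exon length (GENCODE vM21) at 3.56 and 1.91 TPM per read and kilobase, and 80.9% and 80.8% of genes under 10 reads lay within 0.01 of a whole number. For 7 enzymes the length equalled the union of annotated exons. For Aldoa, Pgam1 and Pkm it was set so that both reads and length came out whole nearest to the annotation, at 3762, 1831 and 5198 bases. Read recovery and relative differences were tested on simulated data. The enzymes and lists were chosen with earlier results of these data known. Of each related list, up to 4 genes were named, those of the largest differences at a minimum mean of 5 TPM, with all measured isozymes, phosphofructokinases and transporters open to naming. In the list of reference genes, 1 gene that this rule names is not reported here. Promoter sequences were from RefSeq (GRCm38.p6), where all 10 enzymes matched by symbol. Alternatives were pseudocounts, minimum levels, reference genes, rescaling, repeated symbols and retrocopies. Scripts ran under Python 3.11.15 with scipy 1.17.1, numpy 2.4.6 and pandas 2.3.3.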

Additional observations from a re-analysis of the deposited data

How the results depend on the processing

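Against the median of the reference-gene list the median enzyme was at -0.68, with 0 enzymes above it and 3 at least 2-fold from it. A pseudocount of 5 TPM gave -0.44, 1 enzyme above and 2 at least 2-fold away. Without a minimum level the value was -1.54, with 0 above and 10 at least 2-fold away, because 52.7% of named genes were at 0 in both libraries and the median gene was then 0. A minimum mean of 5 TPM put 7 enzymes above the median gene. Once the 20 most abundant rows were removed and the rest rescaled without centring, 1 enzyme was at least 2-fold from equal levels. Centred on the median gene, which was chosen after seeing the data, this gave 0.09 with 0 enzymes 2-fold away. Recovered reads, chosen after seeing the data, also gave 1. The pooled ratio was 3.17 without Pkm, chosen after seeing the data. Under the alternatives not given here by value, the median enzyme ran from -0.15 to 0.10 relative to its reference, beside -0.26 in the uncentred rescaling. Pkm, Gpi1 and Pgk1 were below the reference under all 11 alternatives that gave a value for each enzyme, and the other 7 enzymes changed side under at least 1. Hk2 and Pgam1 rest on 6 reads each, which limits any statement on them. No paired analysis was possible because each group has 1 library, and for the same reason no replicate could be left out.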

Other observations

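Gapdh is often used to scale other transcripts. Over 18 reference genes, the level relative to Gapdh was higher in FuOXP NP for 11 and lower for 7. Among the 9488 named genes, 65.0% had a lower log2 difference (pseudocount of 1 TPM) than Gapdh. Changes of the ratio ran from 0.206-fold (Polr2a, on 12 and 2 reads) to 2.88-fold (Tuba1b, on 3 and 7 reads). The genes named here beside Hprt and Rpl13a were chosen after their values were seen. Actb, cytoskeletal actin, was 20.7 times the Gapdh level in Empty NP, a ratio that was 0.578-fold in FuOXP NP, on 282 and 132 Actb reads. Eef1a1, a translation elongation factor, was 81.5 and 98.9 times the Gapdh level, on 1032 and 1014 reads. Hprt, a purine salvage enzyme, was 1.22 and 3.21 times the Gapdh level, on 8 and 17 reads, and Rpl13a, a ribosomal protein, was 0.372 and 0.920 times, on 4 and 8 reads. With 21 and 17 Gapdh reads these ratios are imprecise, and those of Polr2a and Tuba1b, which set the range, also rest on few reads of their own. The Gapdh level itself is uncertain, since 94.0% of its coding windows are shared with other genes and its exon length was taken as 4133 bases. Multiples of it are therefore not abundance ratios to rely on.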
